A study of Mus musculus with 6 samples.

Results

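The 9 genes described here are Cpa4, Anxa3, Has2, Cgref1, Flnc, Rapgef3, Ets1, Rin1 and Gm50397, taken by gene symbol from the 32285 genes counted in single cells of mouse dorsal skin. They were selected on measured values: their UMI levels in outer bulge cells of these same libraries, higher 4 h post depilation than at 0 h. That contrast is therefore given below as a description, and the question is how far the same genes were also higher in other cells of the skin. The skin came from wildtype FVB males of postnatal day 55 to 57, all shaved and waxed, with no transgene and no other agent. Samples span 6 d post depilation, the earliest at 0 h, with others after 4 h, 16 h, 2 d and 4 d. Each time point is 1 single-cell library holding equal numbers of cells from 2 mice, whose cells cannot be told apart. A time point and its library therefore cannot be told apart either, and no p-value is given between time points.

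The hair follicle (HF) renews itself in cycles. During its resting phase, stem cells sit in the outer layer of the bulge (OB), around an inner bulge layer (IB) that anchors the old hair, and plucking the hair injures this niche and starts a new growth phase. Above the bulge lies the upper HF with basal (uHF.B) and suprabasal (uHF.SB) cells, which opens into the interfollicular epidermis (IFE) with its own basal (IFE.B) and suprabasal (IFE.SB) layers. The products of these genes act outside the cell, at its membrane, on actin, on small GTPases and in the nucleus, and they form no single known pathway.

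Cell types were rebuilt by clustering 50502 cells, and each cluster carries the name of the marker list it resembled most. The outer bulge gave OB1-like, OB2-like and OB3-like clusters, for which, with the cells of each name pooled, at least 9 of 10 markers were at least 2-fold higher than in the other cells. Support was weaker for uHF.B (4 of 9 markers past the same limit), IFE.SB (4 of 8) and IFE.B (5 of 7). All 12 IB markers and all 8 uHF.SB markers passed it. Of the clusters pooled as OB1, cluster 5 passed the naming step's limits on level and detection for 10 of the 10 OB1 markers, cluster 11 for 8 and cluster 1, the one with most cells (2865 of 4667), for 5. A suprabasal IFE cluster led by Lce1m and Lor, genes of the cornifying outer layers, is kept apart as IFE.SB (Lor). SG stands for sebaceous gland. The 6 libraries held 72634390 to 112370376 UMIs (unique molecular identifiers, each standing for 1 captured transcript), and between any pair of libraries 7 to 47 barcodes were shared. The number of OB1 cells was 318, 508, 527, 327, 1740 and 1247 in time order. Levels are CPM: the UMIs of a gene in all cells of a type in 1 library, divided by all UMIs of those cells and scaled to 1e6. Intervals in parentheses are 95% limits that cover counting error only, not differences between mice. A gene with 0 UMIs is placed at a floor of 3 UMIs when a fold is needed, and such a fold is a lower bound. Each transcript is counted once from its 3′ end.

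All 9 genes were at least 4-fold higher at 4 h than at 0 h in OB1 cells, which reflects how they were chosen. Of the 10563 genes with at least 10 UMIs over both libraries, 4.29% passed the same limit. The median log2 fold over the 9 genes was 4.17, with the genes at 0 UMIs held at their bound, against -0.02 over all genes. Has2 was nearest to the limit, at 4.05-fold, and fell short of it under both other scalings of the totals. Those scalings moved the median over all genes in OB1 to -0.25 and -0.18. No clustering step used any of the 9 genes.

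After 4 h the number of the 9 genes at least 4-fold above 0 h in OB1 was 6 at 16 h, where all 9 passed the minimum and 3.47% of all genes were that much higher. On day 2 it was 1 of the 6 that passed (5.29%), on day 4 0 of 7 (7.11%) and on day 6 1 of 8 (4.76%). The gene still higher at 2 d and 6 d was Ets1. Cpa4 and Rapgef3 were at least 4-fold below their 0 h level at 2 d (3.5% of all genes), 4 d (4.35%) and 6 d (1.93%). The clusters that make up OB1, described further on, differed in share between these libraries: cluster 5 held 268 of 318 cells at 0 h, and cluster 1 held 236 of 327 at 2 d, 1541 of 1740 at 4 d and 789 of 1247 at 6 d. Within cluster 5, Cpa4 stood at 7.34 CPM at 0 h (11 UMIs) and 4.99 CPM at 2 d (2 UMIs). Rapgef3 stood there at 6.01 CPM (9 UMIs) and 2.5 CPM (1 UMI), so neither was 4-fold lower at 2 d. At 4 d Cpa4 had 0 UMIs in cluster 5, and Rapgef3 stood at 1.34 CPM (1 UMI), more than 4-fold lower. At 6 d both stood at 1.12 CPM (2 UMIs each), more than 4-fold lower, with intervals that overlapped those of 0 h. Ets1 in cluster 5 stood at 1.33 CPM at 0 h (2 UMIs), 7.49 CPM at 2 d (3 UMIs) and 3.94 CPM at 6 d (7 UMIs).

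**Figure D1:**
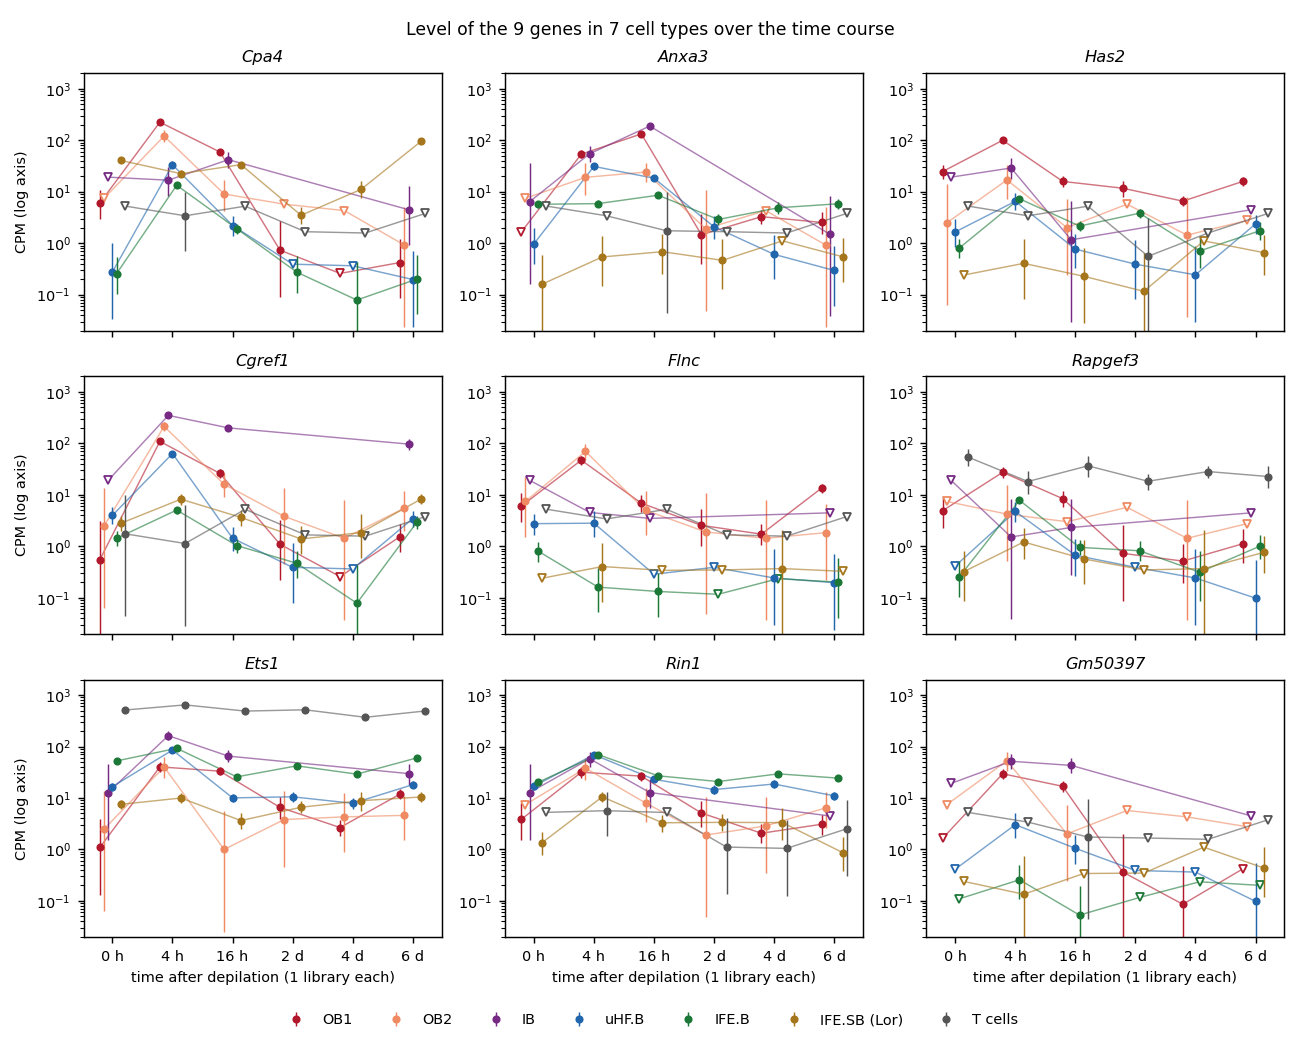
Level of each of the 9 genes (CPM, log axis) in 7 cell types over the 6 libraries. Points are summed UMIs with 95% Poisson limits, open triangles mark 0 UMIs and stand at the floor of 3 UMIs, types with fewer than 20 cells are left out, and lines only join points of 1 type. In OB1, Cpa4 stood at 224 CPM at 4 h and at 0.73 CPM at 2 d, whereas Anxa3 was highest at 16 h, at 133 CPM.

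Cpa4 encodes a metallocarboxypeptidase, an enzyme that trims amino acids from the C-terminal end of peptides. It lies on the plus strand of chr6:30568369-30592418 (GRCm38). In OB1 it stood at 6.02 CPM at 0 h (11 UMIs), 224 CPM at 4 h (205 to 244), 59.0 CPM at 16 h, 0.73 CPM at 2 d, 0 CPM at 4 d and 0.42 CPM at 6 d. The 4 h level was 37.2 times the 0 h level (20.6 to 75.0). Cpa4 was thus highest within the first day, and 39.0% of OB1 cells held a UMI at 4 h against 2.83% at 0 h. Among cells with at least 2000 UMIs, each thinned to 2000 to remove differences in depth, these shares were 28.4% and 1.57%. Cells with fewer UMIs were left out, so 462 of the 508 OB1 cells entered at 4 h. The gene was not limited to the bulge. In uHF.B it went from 0.28 to 33.4 CPM (2 and 154 UMIs), a ratio of 121 (32.9 to 1008). In IFE.B it went from 0.26 to 13.3 CPM, a ratio of 51.9 (25.0 to 130), so the ratio was large while the level stayed far below that of OB1. The IFE.SB (Lor) cells showed a separate pattern. They held Cpa4 at 40.4 CPM at 0 h and at 22.4 CPM at 4 h, a ratio of 0.55 (0.46 to 0.66), and reached 95.5 CPM at 6 d.

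The bases ahead of the Cpa4 start are shown because they hold letters of an AP-1 motif, the sequence bound by Fos and Jun proteins. RefSeq (GRCm38.p6) promoters were available for 5 of the 9 genes: Cpa4, Cgref1, Flnc, Rapgef3 and Rin1. In the 250 bases ahead of each start, both strands were searched for TGANTCA (AP-1), GGAATG (the TEAD core), TGACGTCA (CRE) and CCGGAAGT (ETS). AP-1 letters were found for Cpa4 and, ahead of both of its RefSeq starts, Cgref1, and 7.82% of all 27025 genes with an entry held them ahead of at least 1 start. TEAD letters were found for Cpa4, Cgref1, Flnc and Rin1, against 14.4% of genes. The other RefSeq start of Flnc had none of the letters. CRE and ETS letters were found for none of the 5, against 1.77% and 3.23% of genes. No AP-1 and TEAD letters overlap in the stretches shown. Capitals mark AP-1 and TEAD letters on either strand, so GGAATG also appears as CATTCC. The Cpa4 stretch is chr6:30568119-30568368, plus strand, with AP-1 letters at bases -10 to -4 from the start. The Flnc stretch is chr6:29433006-29433255, plus strand. For Cgref1, whose TEAD letters lie nearer to its other start, the part ahead of the annotated gene is shown, chr5:30945592-30945730, minus strand. A match of letters does not show that a factor binds there.
Cpa4: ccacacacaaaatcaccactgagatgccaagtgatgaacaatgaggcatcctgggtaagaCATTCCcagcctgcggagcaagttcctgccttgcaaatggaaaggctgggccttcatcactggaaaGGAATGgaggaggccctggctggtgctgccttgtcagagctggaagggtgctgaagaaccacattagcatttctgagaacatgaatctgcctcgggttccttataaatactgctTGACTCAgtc
Cgref1: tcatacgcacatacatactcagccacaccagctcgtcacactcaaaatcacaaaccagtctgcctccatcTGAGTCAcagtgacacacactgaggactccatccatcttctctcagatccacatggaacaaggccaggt
Flnc: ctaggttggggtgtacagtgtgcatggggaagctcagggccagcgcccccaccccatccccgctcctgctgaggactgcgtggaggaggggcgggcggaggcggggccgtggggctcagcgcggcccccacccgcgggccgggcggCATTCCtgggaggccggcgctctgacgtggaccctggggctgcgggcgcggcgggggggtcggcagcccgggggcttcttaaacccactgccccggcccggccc

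Cgref1 encodes a secreted protein with calcium-binding EF-hand domains, and lies on the minus strand of chr5:30933143-30945591. In OB1 it stood at 0.55 CPM at 0 h (1 UMI), 109 CPM at 4 h (96.2 to 123), 26.1 CPM at 16 h, 1.09 CPM at 2 d, 0 CPM at 4 d and 1.54 CPM at 6 d. The ratio of 4 h to 0 h was 200 (35.5 to 7916), wide because of the single UMI at 0 h. Cluster 11 of OB1, described further on and without cells at 0 h, held 228 of the 255 OB1 UMIs of Cgref1 at 4 h. Cluster 5 held 0 UMIs at 0 h and 17 at 4 h (18.2 CPM). OB1 was not the type with the highest Cgref1 level. At 4 h Cgref1 stood at 350 CPM in IB, 250 CPM in OB3, 213 CPM in OB2 and 139 CPM in uHF.SB. In IB it was still at 200 CPM at 16 h and 96.9 CPM at 6 d, and at 0 h none of the 20 IB cells held a UMI, which makes the 4 h level at least 18.2-fold higher. In uHF.SB the ratio was 15.6 (10.9 to 23.3) and in uHF.B 15.9 (10.8 to 24.1). In IFE.B the level was 1.43 CPM at 0 h and 5.06 CPM at 4 h. Cgref1 was thus higher at 4 h along the length of the HF, inner and suprabasal layers included.

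Has2 encodes a hyaluronan synthase, a membrane enzyme that extrudes the matrix polysaccharide hyaluronan. It lies on the minus strand of chr15:56665627-56694539 and overlaps Has2os on the opposite strand. In OB1 it was already present at 0 h, at 24.6 CPM (18 to 32.9). It stood at 99.8 CPM at 4 h (87.4 to 113), 15.8 CPM at 16 h, 11.7 CPM at 2 d, 6.55 CPM at 4 d and 15.9 CPM at 6 d. The intervals at 0 h and 4 h did not overlap. Within cluster 5 of OB1, described further on, Has2 stood at 26.7 CPM at 0 h (19.1 to 36.3). At 4 h it was at 43.8 CPM there (31.4 to 59.4), with overlapping intervals, and at 4 d at 26.8 CPM. Cluster 1 held it at 15.2 CPM at 0 h and 13.3 CPM at 4 h. Cluster 11, which had no cells at 0 h, held 186 of the 233 OB1 UMIs of Has2 at 4 h, at 196 CPM. In OB3 Has2 was present at 27.2 CPM at 0 h and 20.9 CPM at 4 h, with 9 and 5 UMIs. In IFE.B it went from 0.81 to 7.28 CPM, a ratio of 9.01 (5.81 to 14.7), which exceeded the OB1 ratio although the level remained lower. In SG it stood at 7.65 CPM at 4 h and had 0 UMIs at 16 h.

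Anxa3 encodes an annexin, a protein that binds membrane phospholipids in the presence of calcium. It lies on the plus strand of chr5:96793339-96845966 and overlaps Gm42603 on the same strand, so reads shared by both cannot be assigned with certainty. In OB1 there was no UMI among 1827967 at 0 h, where the floor of 3 UMIs stands at 1.64 CPM. The level was 53.5 CPM at 4 h (44.6 to 63.8), 133 CPM at 16 h (121 to 145), 1.46 CPM at 2 d, 3.27 CPM at 4 d and 2.53 CPM at 6 d. Anxa3 was therefore at least 32.6-fold higher at 4 h and was highest at 16 h, where its interval lay above that at 4 h. IB cells showed the same order, with 6.39 CPM at 0 h (1 UMI), 54.7 CPM at 4 h and 188 CPM at 16 h. In uHF.B the ratio of 4 h to 0 h was 32.1 (15.2 to 81.3). SG cells held the highest level at 4 h, 89.9 CPM, followed by 22.6 CPM at 16 h and 1.05 CPM at 2 d; only 13 SG cells were present at 0 h and no fold is given. IFE.B stood apart, at 5.69 CPM at 0 h and 5.87 CPM at 4 h, a ratio of 1.03 (0.83 to 1.28).

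Flnc encodes filamin C, which crosslinks actin filaments and is best known from striated muscle. It lies on the plus strand of chr6:29433256-29461883. In OB1 it stood at 6.02 CPM at 0 h (11 UMIs), 47.1 CPM at 4 h (38.7 to 56.8), 6.90 CPM at 16 h, 2.55 CPM at 2 d, 1.72 CPM at 4 d and 13.5 CPM at 6 d (10.9 to 16.5). The 4 h level was 7.83 times that at 0 h (4.21 to 16.1), and by 16 h the intervals overlapped that of 0 h. In OB2 Flnc went from 7.45 to 69.7 CPM (3 and 33 UMIs), a ratio of 9.36 (2.94 to 47.7), and in OB3 7 UMIs at 4 h faced 0 at 0 h. It was the gene most nearly limited to the bulge. In uHF.B it stood at 2.76 CPM at 0 h and 2.82 CPM at 4 h, a ratio of 1.02 (0.47 to 2.16). In IFE.B it was lower at 4 h, at 0.16 against 0.81 CPM, a ratio of 0.20 (0.06 to 0.54), and in IB no UMI was found in any library with at least 20 cells. Skeletal muscle markers in OB1 summed to 2.19 CPM at 0 h and 0.86 CPM at 4 h, with 6 of 7 at 0 UMIs in each. They summed to 163 CPM at 4 d, with none at 0 UMIs, when Flnc stood at 1.72 CPM. The part of muscle RNA in the Flnc levels was not tested.

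Rapgef3 encodes an exchange factor (Epac1) that activates Rap GTPases when it binds cyclic AMP. It lies on the minus strand of chr15:97744770-97767972 and overlaps 2 annotated genes on the opposite strand. In OB1 it stood at 4.92 CPM at 0 h (9 UMIs), 27.4 CPM at 4 h (21.1 to 35.0), 8.43 CPM at 16 h, 0.73 CPM at 2 d, 0.52 CPM at 4 d and 1.12 CPM at 6 d, a ratio at 4 h of 5.57 (2.76 to 12.7). Cluster 11 of OB1, described further on and without cells at 0 h, held 46 of the 64 OB1 UMIs of Rapgef3 at 4 h. Within cluster 5 Rapgef3 stood at 6.01 CPM at 0 h (2.75 to 11.4). At 4 h it stood there at 12.8 CPM (6.62 to 22.4), with overlapping intervals. Basal IFE showed a larger ratio than OB1. There it went from 0.26 to 7.83 CPM (7 and 243 UMIs), a ratio of 30.5 (14.6 to 76.6), and in uHF.B from 0 to 22 UMIs, at least 11.5-fold higher. T cells carried Rapgef3 in every library, at 54.3 CPM at 0 h and 18.1 CPM at 4 h, a ratio of 0.33 (0.17 to 0.63).

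Rin1 encodes a Ras effector that acts on Rab5 and on Abl kinases, at chr19:5050481-5057071 on the plus strand. In OB1 it stood at 3.83 CPM at 0 h (7 UMIs), 31.7 CPM at 4 h (24.9 to 39.8), 26.6 CPM at 16 h (21.7 to 32.2), 5.11 CPM at 2 d, 2.07 CPM at 4 d and 3.09 CPM at 6 d. The ratio at 4 h was 8.28 (3.82 to 21.3), and the levels at 4 h and 16 h did not differ beyond their intervals. Rin1 was higher at 4 h across the keratinocytes. It went from 20.2 to 69.5 CPM in IFE.B, a ratio of 3.45 (3.14 to 3.79). It went from 3.03 to 37.0 CPM in IFE.SB, a ratio of 12.2 (8.72 to 17.6), and from 16.9 to 69.3 CPM in uHF.B. Its level at 4 h was thus higher in uHF.B and IFE.B than in OB1.

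Ets1, a transcription factor of the ETS family known from lymphocytes and basal keratinocytes, lies at chr9:32636221-32757820 on the plus strand. In OB1 it stood at 1.09 CPM at 0 h (2 UMIs), 40.3 CPM at 4 h (32.5 to 49.3), 33.2 CPM at 16 h (27.7 to 39.4), 6.57 CPM at 2 d, 2.67 CPM at 4 d and 11.9 CPM at 6 d. The ratio at 4 h was 36.8 (9.91 to 308). Of the 94 OB1 UMIs at 4 h, 82 lay in cluster 11, described further on, which had no cells at 0 h. Cluster 5 held 1.33 CPM at 0 h (2 UMIs) and 6.41 CPM at 4 h (6 UMIs). Cluster 1 held 0 UMIs at 0 h and 6 at 4 h (13.3 CPM). OB1 began far below other cells of the skin. At 0 h it stood at 52.5 CPM in IFE.B, 512 CPM in T cells and 444 CPM in melanocytes. At 4 h it stood at 92.3 CPM in IFE.B, a ratio of 1.76 (1.65 to 1.87), at 643 CPM in T cells and at 462 CPM in melanocytes, where the direction of the difference depended on the scaling. IB cells went from 12.8 CPM (2 UMIs) to 163 CPM, a ratio of 12.7 (3.44 to 106). The 4 h level in OB1 was thus still below that of IFE.B.

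Gm50397, annotated as a long intergenic non-coding RNA, had no UMI in any cell type at 0 h. In OB1 the floor of 3 UMIs stands at 1.64 CPM. It stood at 29.6 CPM at 4 h (23.0 to 37.4), at least 18-fold higher, and at 16.9 CPM at 16 h (13.0 to 21.5), followed by 0.36 CPM at 2 d, 0.086 CPM at 4 d and 0 CPM at 6 d. At 4 h it was at 52.8 CPM in OB2, 45.9 CPM in OB3, 51.7 CPM in IB, 16.6 CPM in SG and 3.03 CPM in uHF.B. Suprabasal uHF cells had 0 UMIs in all 6 libraries, and IFE.B had 8 UMIs at 4 h (0.26 CPM). In OB1 the 69 UMIs at 4 h lay in 32 cells, of which 1 held 9.

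Counted over the genes that passed the minimum of 10 UMIs, at least 4-fold higher levels at 4 h were found for 6 of 6 in OB2 (6.79% of all genes), 4 of 6 in OB3 (5.02%) and 4 of 7 in IB (7.52%). In uHF.B they were found for 7 of 9 (4.03%), and in uHF.SB for 5 of 5 (3.82%). In the IFE they were found for 3 of 8 in IFE.B (4.16%), 5 of 7 in IFE.SB (4.37%) and 1 of 5 in IFE.SB (Lor) (4.64%). Flnc was at least 4-fold lower in IFE.B, as were 13.4% of all genes there. Among 2 genes in T cells (4.85%), 1 in Langerhans cells (4.91%) and 1 in melanocytes (8.38%), none was. A gene that passes the minimum through its 4 h UMIs alone enters with its direction set, so these counts describe the genes that passed and not all 9. Its lower bound can still fall short of 4-fold, and it is then left out of the count. In IB this held for Cpa4, Has2 and Gm50397, at bounds of 0.87, 1.51 and 2.70, so the IB count may be too low. The median log2 fold was 3.62 in OB2, 2.87 in uHF.B, 3.0 in IFE.SB and 1.80 in IFE.B.

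**Figure D2:**
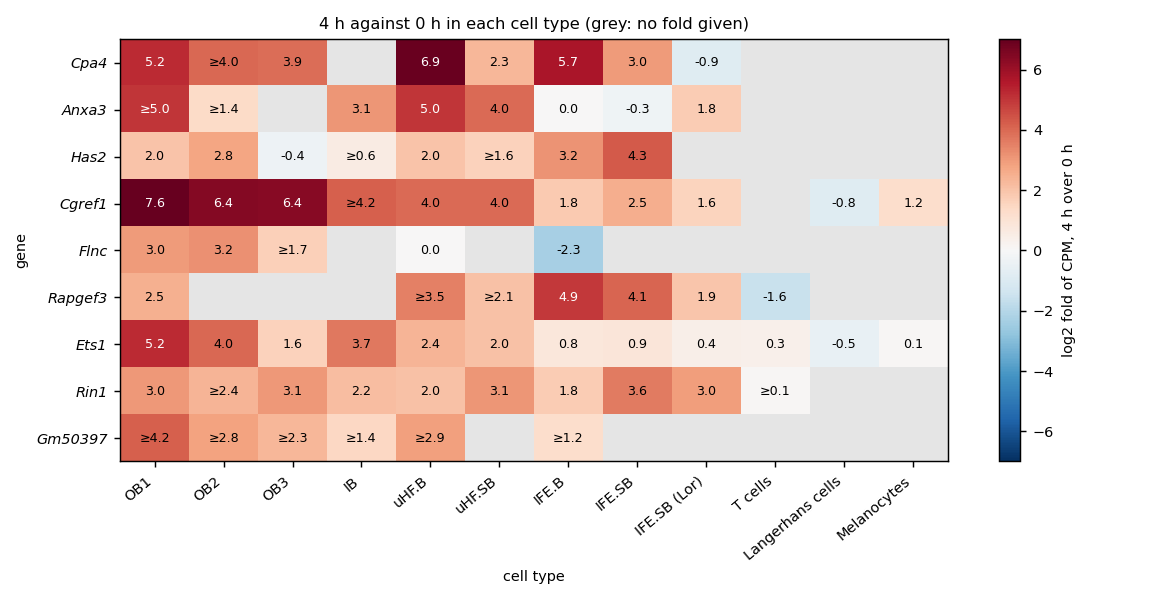
Log2 fold of CPM at 4 h over 0 h for each gene (rows) and cell type (columns), with ≥ for lower bounds against 0 UMIs and grey where both libraries held at most 3 UMIs or the bound lay below 0. Cgref1 and Rin1 were higher in every follicle and IFE type with a value, whereas Flnc was higher in outer bulge types, at a ratio of 1.02 in uHF.B and lower in IFE.B.

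The genes can also be ordered by where their transcripts lay. Outer bulge cells held 4.63% of all UMIs of the 4 h library. They held 82.4% (76.1 to 87.7) of those of Flnc, 46.5% of Gm50397, 42.6% of Has2, 42.5% of Cpa4, 22.4% of Cgref1, 17.2% of Rapgef3 and 15.4% of Anxa3. For Rin1 and Ets1 the shares were 3.09% (2.53 to 3.73) and 2.52% (2.09 to 3.0), below that of all genes. At 0 h outer bulge cells held 3.85% of all UMIs. They already held 60.4% (49.6 to 70.5) of the Has2, 24.6% of the Flnc and 17.0% of the Rapgef3 UMIs. For Cpa4, Cgref1, Rin1, Ets1 and Anxa3 the 0 h shares were 2.23%, 1.55%, 1.20%, 0.312% and 0%. The Has2 share was thus lower at 4 h than at 0 h, and that of Rapgef3 was nearly the same. All HF cells together held 16.1% of all UMIs at 4 h, and 89.6% of the Flnc, 67.7% of the Cgref1 and 67.7% of the Gm50397 UMIs. The IFE held 75.4% of all UMIs, and 78.7% of the Rin1, 70.6% of the Rapgef3 and 68.6% of the Ets1 UMIs. SG held 5.76% of all UMIs, and 39.2% of the Anxa3 and 27.9% of the Gm50397 UMIs. Flnc was thus the gene whose transcripts were closest to being limited to the outer bulge, and the HF shares of Rin1 (15.8%) and Ets1 (14%) were near that of all genes.

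**Figure D3:**
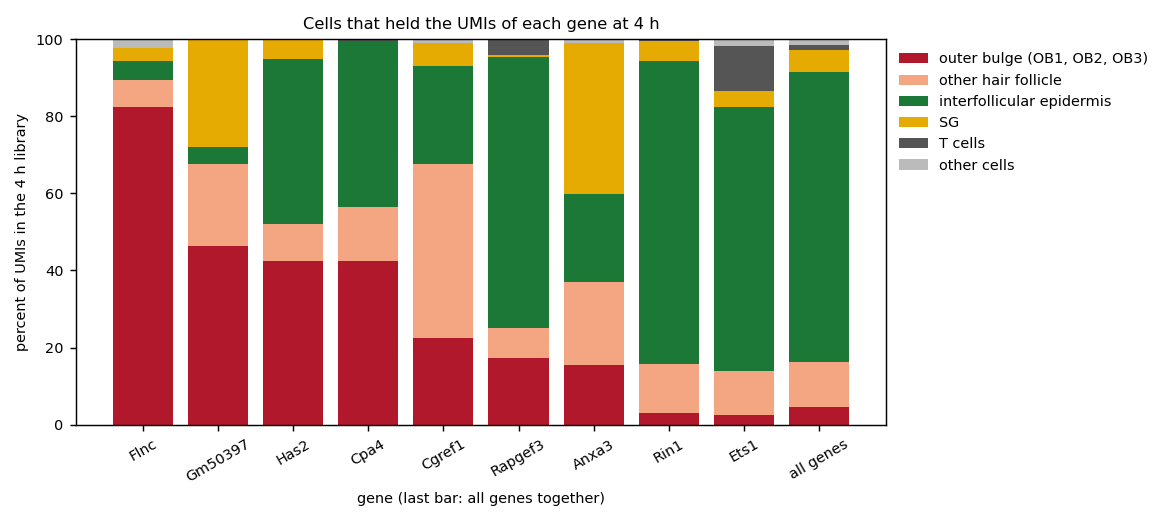
Percent of the 4 h UMIs of each gene (bars, ordered by the outer bulge share) and of all genes together (last bar) that lay in each group of cells. The outer bulge share ran from 82.4% for Flnc to 2.52% for Ets1, against 4.63% for all genes.

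Free RNA in a droplet library gives stray UMIs, so the genes were also read in T cells, which should lack keratinocyte transcripts. At 4 h, T cells held Krt14 at 2.98% and Krt5 at 2.59% of the level in IFE.B. Cpa4 stood there at 1.52% of its OB1 level (3 UMIs), Cgref1 had 1 UMI, Rin1 had 5, and Anxa3, Has2, Flnc and Gm50397 had 0. Endothelial markers in OB1 summed to 0.55 CPM at 0 h and 5.57 CPM at 4 h, with 5 and 4 of 6 at 0 UMIs, and smooth muscle markers to 6.56 and 4.28 CPM, with 3 and 5 of 6 at 0. Macrophage and neutrophil markers were at 0 UMIs at 0 h and at 1 UMI at 4 h, with 5 of 6 at 0. Their part in the differences was not tested.

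Cells that held UMIs of several of the genes were also counted. The genes were chosen for higher levels in outer bulge cells at 4 h, so a higher share there follows in part from that choice. The share that independent detection of the genes would give was not computed. Cells with at least 2000 UMIs were thinned to 2000, and cells with fewer were left out. At 0 h, 0 of 467 such outer bulge cells held a UMI of at least 3 of the 9 genes, which allows up to 0.787%. At 4 h, 10.5% did (8.17 to 13.1; 65 of 621 cells), and at 16 h 3.68% (2.46 to 5.27). Without thinning the shares were 0%, 22% and 13.3%, at medians of 5240, 4368.5 and 6500 UMIs per cell. By type at 4 h, the thinned share was 11% in OB1 (8.33 to 14.3), 10.1% in OB2 (5.15 to 17.3) and 6.03% in IB (2.46 to 12.0). It was 2.51% in uHF.B (1.44 to 4.04) and 0.423% in IFE.B (0.231 to 0.708), and 0 of 245 T cells passed, which allows up to 1.49%. In SG it was 0.855% after thinning and 31.9% before, at a median of 14501 UMIs per cell. Without thinning, IB at 4 h stood at 27.3% and OB1 at 24.4%, at medians of 4982 and 4479 UMIs per cell. At 16 h the thinned share was 8.60% in IB (3.79 to 16.2) and 4.98% in OB1 (3.28 to 7.21). IB was thus not behind OB1 in each of these shares.

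**Figure D4:**
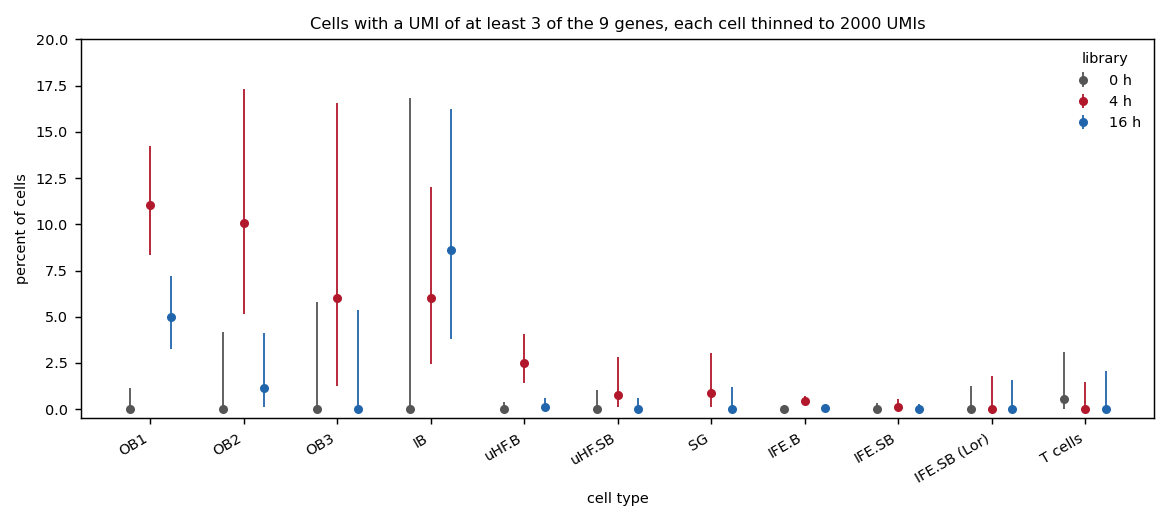
Percent of cells with a UMI of at least 3 of the 9 genes after thinning to 2000 UMIs, by cell type, at 0 h, 4 h and 16 h, with exact 95% binomial limits. Cells with fewer than 2000 UMIs were left out. OB1 and OB2 stood at 11% and 10.1% at 4 h, IFE.B at 0.423%, and SG had too few cells at 0 h for a value.

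OB1 was made of 3 clusters, whose shares of it differed between 0 h and 4 h. Cluster 5, rich in Cd34 and Krt24, held 268 of the 318 OB1 cells at 0 h. At 4 h, cluster 11 held 253, cluster 5 held 182 and cluster 1 held 73 of 508. Cluster 11 had 0, 253, 141, 7, 8 and 83 cells in time order. Its leading genes included Ptgs2 and Serpinb2, and also Cpa4, Anxa3 and Itga2, which were kept out of the clustering. Its Cd34 stood at 57.0 CPM at 4 h, against 399 CPM in cluster 5. At 4 h Cpa4 stood at 385 CPM in cluster 11, 158 CPM in cluster 5 and 22.1 CPM in cluster 1. At least 3 of the 9 genes were found in 22.4%, 1.69% and 0% of their thinned cells.

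Within cluster 5 alone, 5 of the 7 genes that passed the minimum (Cpa4, Anxa3, Cgref1, Flnc and Rin1) were at least 4-fold higher at 4 h, against 3.64% of all genes. Within cluster 1 alone they were 2 of 6 (Anxa3 and Cgref1), against 5.79%. Both clusters are part of the outer bulge cells whose values chose the genes, so these counts are a description. Anxa3 and Cgref1 each had 0 UMIs at 0 h in cluster 5. In cluster 1 they had 0 and 1, so in both clusters they passed the minimum through their 4 h UMIs. At 16 h Anxa3 reached 441 CPM in cluster 11 and stood at 6.39 CPM in cluster 5. At 6 d the cells of cluster 11 again held Flnc at 84.3 CPM, Ets1 at 81.9 CPM and Has2 at 55.4 CPM, but Cpa4 at 2.41 CPM and Gm50397 at 0 CPM. The later cells thus shared only some of the 9 genes with the cells of 4 h.

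**Figure D5:**
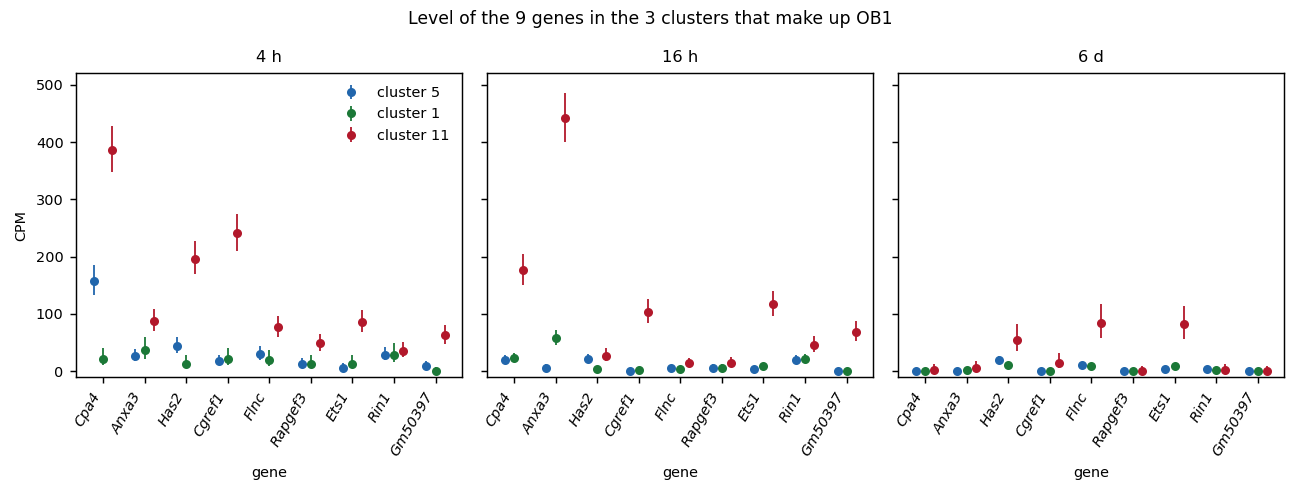
Level (CPM, linear axis) of the 9 genes in the 3 clusters that make up OB1, at 4 h, 16 h and 6 d, with 95% Poisson limits. Cluster 11 held the highest Cpa4 at 4 h, 385 CPM, the highest Anxa3 at 16 h, 441 CPM, and Flnc, Ets1 and Has2 without Cpa4 at 6 d.

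Genes related to each of the 9 were read in OB1 as lists, and 4.29% of all genes again serve as the background. Among metallocarboxypeptidases 0 of 3 that passed the minimum were at least 4-fold higher at 4 h, with Cpe at 0.67 times (0.50 to 0.91) and Cpd at 0.67 times (0.43 to 1.03) the 0 h level. Among annexins it was 1 of 8, Anxa11 at 5.21 times (3.86 to 7.17). Among genes of hyaluronan synthesis, turnover and binding it was 1 of 6, Cd44, the hyaluronan receptor, at 6.72 times (5.86 to 7.74). Among filamins and their partners it was 1 of 12, Itgb1, the integrin beta-1 chain, at 5.17 times (4.6 to 5.83). Each list thus held at most 1 relative that was higher alongside its member.

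As a background for lower levels, 7.5% of all genes were at least 4-fold lower in OB1 at 4 h. Among Rap regulators 1 of 13, Rap2b, was higher at 7.47 times (4.98 to 11.7) and 1, Rapgef4 (Epac2), the relative nearest to Rapgef3, was lower at 0.157 times (0.029 to 0.55). Among ETS factors none of 14 was higher and 1 was lower, Elf3, at 0.078 times with 1 and 10 UMIs. Among Rin, Rab5, Ras and Abl genes none of 10 was, with Hras at 1.78 times (1.59 to 2.0) the 0 h level. Of the immediate early genes, a list that includes the AP-1 factors Fos and Jun, none of 22 was at least 4-fold higher and the median log2 fold was -0.72. Fos stood at 8008 CPM at 0 h and 3625 CPM at 4 h, and Jun at 5046 and 2512 CPM. Of the early wound epithelium genes 11 of 24 were higher, with a median log2 fold of 1.80. They included Plaur, the urokinase receptor, at 124 times (22 to 4947; 1 UMI at 0 h), the keratins Krt16 at 19.9 and Krt8 at 14.9 times, and the tubulin Tubb6 at 9.33 times. In uHF.B this list counted 6 of 24, against 4.03% of all genes, and in IFE.B 10 of 27, against 4.16%.

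Over the 84 sums of a cell type and a library with at least 20 cells, the genes most like the mean pattern of the 9 were Ngef (Pearson's r = 0.76), Pttg1ip (0.73), Zfp593 (0.71), Ehd1 (0.70), G930009F23Rik (0.70), Hdlbp (0.70), Mapkapk2 (0.70), Wincr1 (0.69), Ampd1 (0.68) and Actr3 (0.68), out of 15760 genes. The sums of 1 library share its depth and its mice, so r is a description. Ngef stood at 13.7, 33.4, 11.8, 0.73, 0.69 and 0.98 CPM in OB1 in time order, and Pttg1ip at 73.3, 338, 131, 32.8, 39.99 and 57.7 CPM. Among the 9 genes themselves, Gm50397 followed the mean most closely (r = 0.89) and Ets1 least (r = 0.32).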

How the data were processed

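Dorsal skin cells were captured with a droplet 3′ chemistry, and the authors deposited 1 matrix of UMI counts per library, made with Cell Ranger 6.1.2 on mm10 per the submitters' processing notes. Cells with 500 to 7000 genes and at most 10% mitochondrial UMIs were kept (55177 of 61031 barcodes). The cells with the highest Scrublet scores, 0.8% per 1000 barcodes, were removed as doublets (4675), since the caller's own threshold marked almost none in 5 of 6 libraries. Libraries were integrated with Seurat 5.3.0 (R 4.3.3) by reciprocal PCA anchors over 2000 variable genes and 30 components, without 765 genes: the 9 genes, the genes of the lists read here and cell-cycle genes. Resolution was 0.2 for all skin and 0.4 for the follicle, the latter set after cluster names had been seen, because the outer bulge clusters then formed with every one of 10 seeds. Clusters were named from marker lists, and every name means a resemblance ("OB1-like").

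Raw UMIs were summed per library and cell type with scanpy 1.11.5, and intervals were computed with scipy 1.17.1: exact Poisson limits for levels, Clopper-Pearson limits for shares and exact conditional binomial limits for ratios. Folds used types with at least 20 cells in both libraries. Counts past 4-fold used genes with at least 10 UMIs over both sums. The fold and interval steps were also run on simulated Poisson counts with known folds. Genes expected at or below the floor at 0 h were not among those changed, and differences between mice were not simulated. With 1 library per time point no test was possible between time points, and a test over the whole time course was not run. The 9 genes and the lists were chosen with earlier results of these data known. Genes named from a list are those at least 4-fold higher or lower in OB1 at 4 h, at most 4 by fold, or else the 2 with most UMIs. One gene that this rule names is not reported here. The 10 genes of like pattern had at least 50 UMIs and the highest Pearson correlation of log2(CPM + 1) with the mean of the 9. Alternatives covered filters, doublets, resolution, seeds, scaling, count minimum, floor and thinning.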

Additional observations from a re-analysis of the deposited data

How the results depend on the processing

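The counts of genes at least 4-fold higher at 4 h moved by at most 1.5 times in 107 of 110 recalculations. The largest such move was in IB, with 6 at a floor of 1 UMI (4 otherwise). The exceptions were 2 genes in IFE.SB (Lor) with no doublets removed (1 otherwise) and, chosen after seeing the data, 2 within OB1 cluster 1 and 5 within cluster 5 (9 in OB1). OB1 gave 8 under both other scalings and with no doublets removed. The median log2 fold changed sign in T cells (0.30) and Langerhans cells (0.56) with no doublets removed, and in melanocytes with median-of-ratios scaling (-0.25) or totals without mitochondrial and ribosomal protein genes (-0.14). The cause was not tested.

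The share of all genes at least 4-fold higher followed the count minimum, which sets how many genes enter. With at least 1 UMI it was 3.37% in OB1, 4.95% in OB2, 13.8% in OB3, 4.18% in IB, 10.7% in uHF.B, 11.3% in uHF.SB, 3.36% in IFE.B, 3.59% in IFE.SB, 10.7% in IFE.SB (Lor), 3.96% in T cells, 2.82% in Langerhans cells and 3.12% in melanocytes. With at least 30 UMIs it was 4.02% in OB3, 10.7% in IB, 3.68% in uHF.B, 3.26% in uHF.SB, 4.0% in IFE.SB, 4.17% in IFE.SB (Lor), 2.32% in T cells and 3.57% in melanocytes.

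The percentage of outer bulge cells with at least 3 of the 9 genes at 4 h was 3.75% in cells thinned to 1000 UMIs and 19.1% at 4000 UMIs, and at 16 h 0.782% and 8.32%. With at least 2 genes it was 26.4% at 4 h, 9.07% at 16 h and 0.487% at 6 d, and with at least 4 genes 3.86% and 0.920% at 4 h and 16 h. With all deposited barcodes as the total, outer bulge cells held 37.7% of the Cpa4, 20.4% of the Cgref1 and 74.6% of the Flnc UMIs at 4 h.

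At 4 h, the OB1 level of Cpa4 was 257 CPM with no doublets removed and also at double the follicle resolution, where Has2 stood at 115 CPM and Cgref1 at 126 CPM. In the outer bulge clusters of the all-skin clustering, Cgref1 stood at 169 CPM, Flnc at 40.6 CPM, Ets1 at 67.8 CPM and Gm50397 at 44.1 CPM. No paired analysis was possible because each time point is 1 library. The small sums, such as 20 IB cells at 0 h, limit what could be detected.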
